A study of Mus musculus with 2 samples.

Results

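Collagen genes encode the chains of the collagen triple helix. They were taken as every gene row of the deposited matrix whose symbol is Col, a type number, the letter a and a chain number, which gave 44 genes of 32285. All 44 had at least 1 UMI (unique molecular identifier, the mark of 1 captured RNA molecule) in the kept cells. The data are 1 droplet library of cells from macrophage colonies (CFU-M) grown from the aortas of 2 pooled C57BL/6J mice, labelled male and 12 weeks old, over 14 days in methylcellulose, with viable cells sorted by DAPI exclusion. Cells had been marked with MULTI-seq tags before a 10x Chromium 3′ v3.1 run, and the matrix holds tags named Cafum, Matrigel and Macrophages. No genotype, knockout or treatment arm was labelled, so the groups compared are cell classes and sets of fibroblasts within this library. With 1 library there were no replicates and no test. Values are CPM (UMIs per 1000000 gene UMIs of the summed cells), and the 95% intervals cover counting error only.

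Fibrillar collagens (types I, II, III, V, XI, XXIV and XXVII) assemble into the banded fibres that carry tension, and type I and type III fibres give the artery wall much of its strength. Type IV forms the sheet-like network of basement membranes, type VI forms beaded microfilaments around cells, and types XV and XVIII (multiplexins) sit at basement membrane zones. Fibril-associated collagens lie on the surface of fibrils, type VIII forms short-chain networks made by vascular cells, and transmembrane collagens stay anchored in the plasma membrane. Collagen chains are hydroxylated and folded in the endoplasmic reticulum, trimmed by proteinases outside the cell and crosslinked by lysyl oxidases.

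The library held 593248944 gene UMIs in 34813 barcodes, and 30755 cells were kept. Clusters made without the collagen genes gave 5457 fibroblast-like cells (17.7% of kept cells), 2757 macrophage-like cells (8.96%) and 22300 mast cell-like cells (72.5%), with 241 cells unnamed. Median depth was 31213, 8820 and 11450 UMIs per cell in the 3 classes. The fibroblast markers Dcn, Lum, Pdgfra, Pdgfrb, Dpt, Mfap4, Mfap5, Fbln1, Cdh11 and Serpinf1 summed to 3527, 119 and 65.6 CPM in these classes. Mast cell markers were counted in every class, with 7 genes that summed to 60733 CPM in the mast cell-like class, 21448 CPM in the macrophage-like class and 8931 CPM in the fibroblast-like class. Xist, made from an inactive X chromosome, stood at 707, 355 and 382 CPM in the 3 classes, and the Y-linked Ddx3y at 30.8, 51.5 and 18.6 CPM, against the label of male mice alone. Its part in the results was not tested.

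Collagen RNA was concentrated in the fibroblast-like cells. The 44 genes took 1.70% of all gene UMIs there (1.700 to 1.704), 0.0442% in macrophage-like (0.0435 to 0.0450) and 0.0317% in mast cell-like cells (0.0315 to 0.0319). Per fibroblast-like cell the median share was 1.60%, the 10th percentile 0.405% and the 90th percentile 3.41%. At an equal depth of 5500 UMIs, a fibroblast-like cell had UMIs of a median of 12 collagen genes, a macrophage-like cell of 2 and a mast cell-like cell of 1. Thinning left out 189, 561 and 1460 shallower cells of the 3 classes.

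The fibrillar genes supplied 66.5% of collagen UMIs in fibroblast-like cells. Col1a2, the alpha 2 chain of type I collagen (chromosome 6, 4504814 to 4541544, plus strand, GRCm38), was highest at 4606 CPM (4596 to 4616). The macrophage-like class had 94.3 CPM of it (90.8 to 97.8) and the mast cell-like class, called the mast class here, 68.5 CPM (67.6 to 69.5). Its level per fibroblast-like cell ran from 970 CPM at the 10th percentile through a median of 4023 CPM to 9472 CPM at the 90th. Col3a1, the single chain of type III collagen (chromosome 1, 45311538 to 45349706, plus strand), had 2825 CPM in the fibroblast-like class (2818 to 2833), 77.6 CPM in the macrophage-like class (74.4 to 80.8) and 60.9 CPM in the mast class (60.0 to 61.8). Col1a1, which pairs with Col1a2 in type I collagen (chromosome 11, 94936224 to 94953042, plus strand), had 2768 CPM (2760.1 to 2776), 63.2 CPM (60.4 to 66.1) and 45.5 CPM (44.8 to 46.3) in the same order. The level of these 3 genes thus ran together down the classes, with fibroblast-like cells far above the others and macrophage-like slightly above mast cell-like cells.

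Type V collagen chains, which set fibril diameter, were also fibroblast genes. Col5a2 (chromosome 1, minus strand) had 648 CPM in the fibroblast-like class (644 to 651), 16.6 CPM in the macrophage-like class (15.2 to 18.1) and 11.1 CPM in the mast class (10.8 to 11.5). Col5a1 (chromosome 2) had 262 CPM (259 to 264), 7.33 CPM (6.39 to 8.36) and 5.11 CPM (4.86 to 5.37), and overlaps 2 transcripts of the other strand in GENCODE. Col5a3 (chromosome 9) had 117 CPM (116 to 119), 3.35 CPM (2.72 to 4.07) and 2.46 CPM (2.28 to 2.64). Col11a1, the type XI chain known from cartilage fibrils (chromosome 3), had 45.0 CPM (44.0 to 46.0), 1.10 CPM (0.760 to 1.55) and 0.703 CPM (0.612 to 0.804). The other 4 fibrillar genes stayed under 50 CPM: in fibroblast-like cells Col27a1 had 22.1 CPM, Col24a1 20.7 CPM, Col2a1 0.698 CPM and Col11a2 0.522 CPM. Both cartilage chains, Col2a1 and Col11a2, were therefore near 0 while Col11a1 was not.

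Type IV collagen supplied 17.2% of collagen UMIs in fibroblast-like cells, nearly all from 2 of its 6 chains. Col4a1 (chromosome 8, 11198423 to 11312826, minus strand) had 2019.9 CPM in the fibroblast-like class (2013 to 2027), 41.7 CPM in the macrophage-like class (39.4 to 44.1) and 27.4 CPM in the mast class (26.8 to 27.95). Its partner Col4a2 (chromosome 8, 11312805 to 11449287, plus strand) had 879 CPM (875 to 884), 25.4 CPM (23.6 to 27.3) and 14.4 CPM (14.0 to 14.8). Both are read away from each other from starts 21 bases apart, so reads near that overlap cannot be told apart without strand. Col4a5 had 30.1 CPM and Col4a6 3.18 CPM in fibroblast-like cells. Their starts on the X chromosome lie 1309 bases apart. Col4a4 had 3.17 CPM and Col4a3, whose start lies 72 bases from it, 0.318 CPM. The other 4 chains were thus low beside the ubiquitous Col4a1 and Col4a2.

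The type VI trimer supplied 11.6% of collagen UMIs. Col6a1 (chromosome 10) had 744 CPM in the fibroblast-like class (740.1 to 748), 20.97 CPM in the macrophage-like class (19.4 to 22.7) and 15.2 CPM in the mast class (14.8 to 15.6). Col6a3 (chromosome 1), the long chain whose end is cleaved off as endotrophin, had 709 CPM (705 to 713), 18.7 CPM (17.2 to 20.3) and 14.4 CPM (13.9 to 14.8). Col6a2 (chromosome 10) had 524 CPM (521 to 528), 12.6 CPM (11.4 to 14.0) and 9.12 CPM (8.79 to 9.47). Col6a4, Col6a5 and Col6a6, the other long chains, had 0.085 to 1.82 CPM in fibroblast-like cells.

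The other 5 genes that reached 50 CPM were of other families. Col15a1, a multiplexin of basement membrane zones (chromosome 4), had 356 CPM in the fibroblast-like class (353 to 358), 15.3 CPM in the macrophage-like class (13.9 to 16.7) and 24.1 CPM in the mast class (23.5 to 24.6). Col18a1, the multiplexin that releases endostatin (chromosome 10), had 78.0 CPM (76.7 to 79.3), 2.48 CPM (1.94 to 3.11) and 4.14 CPM (3.91 to 4.37). For these 2 genes mast cell-like cells were above macrophage-like cells, the reverse of Col1a1, Col1a2, Col3a1, Col4a1, Col4a2 and the 3 main type VI chains. Col8a1, a short-chain network collagen of vascular cells (chromosome 16), had 137 CPM (135 to 139), 2.98 CPM (2.39 to 3.66) and 1.71 CPM (1.56 to 1.86). Col12a1, a fibril-associated collagen (chromosome 9), had 108 CPM (106 to 109), 2.84 CPM (2.27 to 3.52) and 1.97 CPM (1.82 to 2.14). Col16a1, also fibril-associated (chromosome 4), had 52.5 CPM (51.5 to 53.6), 2.64 CPM (2.09 to 3.29) and 1.25 CPM (1.13 to 1.39).

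The remaining genes were low. In fibroblast-like cells the 7 other fibril-associated genes ran from 0.0227 CPM (Col22a1) to 19.3 CPM (Col14a1). The 4 transmembrane genes ran from 0.0511 CPM (Col13a1) to 8.84 CPM (Col23a1), and the anchoring fibril gene Col7a1 had 3.88 CPM. Col28a1 had 8.23 CPM and Col26a1 0.0738 CPM, while the short-chain genes Col10a1 and Col8a2 had 0.284 and 0.244 CPM. In all, 22 genes reached 10 CPM in fibroblast-like, 11 in macrophage-like and 9 in mast cell-like cells.

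**Figure D1:**
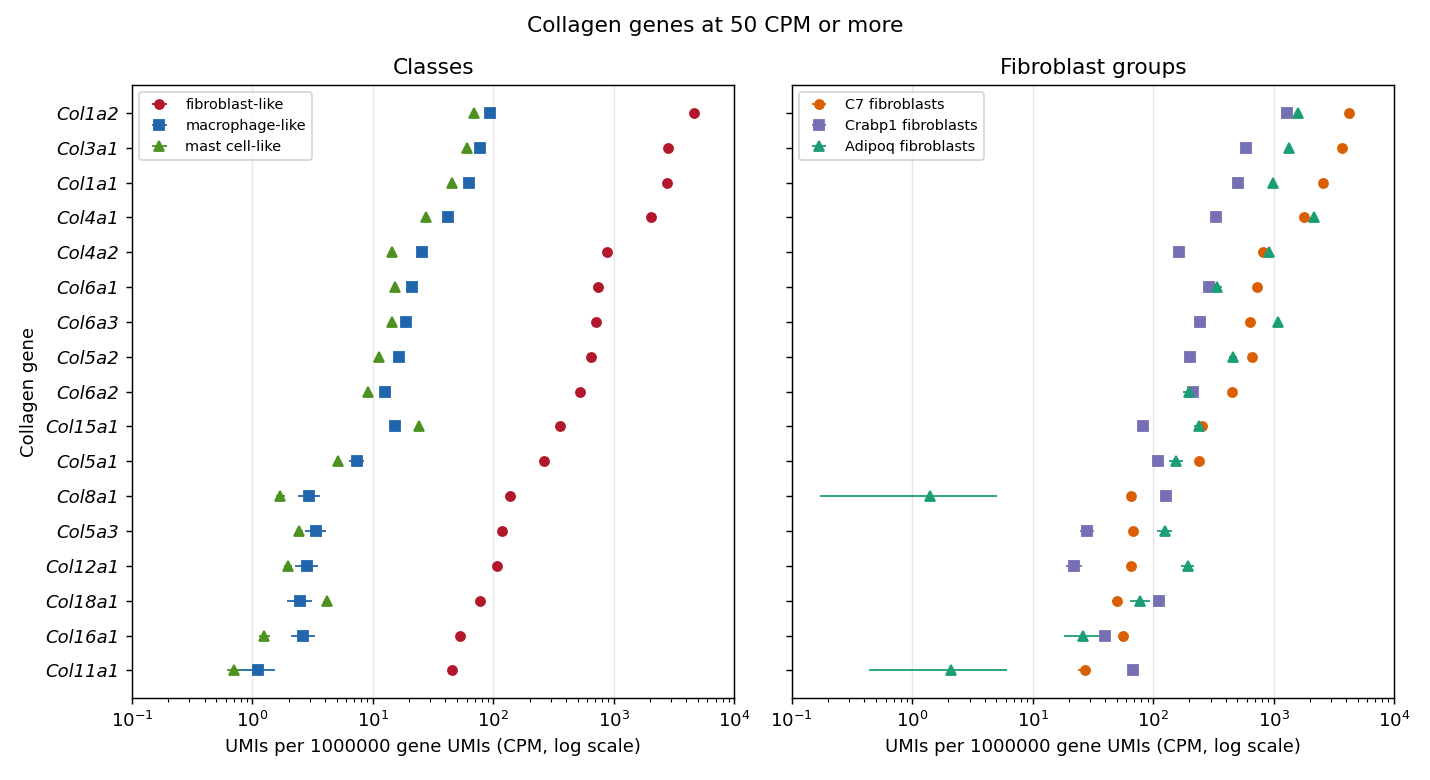
Summed level of the 17 collagen genes at 50 CPM or more in a class or fibroblast group (horizontal log axis, UMIs per 1000000 gene UMIs, bars are 95% Poisson intervals for counting error). The left panel shows fibroblast-like cells right of both other classes for all 17 genes, and the right panel shows Crabp1 fibroblasts left of C7 fibroblasts for most genes but right of them for Col8a1, Col18a1 and Col11a1.

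Among genes at 10 CPM or more in either class, 22 of the 22 collagen genes compared were 4-fold or more higher in fibroblast-like than in mast cell-like cells, against 15.6% of all 9416 genes, and none was 4-fold or more lower (background 6.30%). Their median log2 ratio was 5.70, against -0.02 over all genes compared. The span ran from 7.02-fold for Col20a1 to 80.2-fold for Col8a1. All 22 genes reached 10 CPM in fibroblast-like cells, but only 9 did in mast cell-like and 11 in macrophage-like cells. The rest entered through the class where they were high, so the counts in both comparisons were partly set by that filter. Against macrophage-like cells, 21 of 22 were 4-fold or more higher, against 11.2% of 9588 genes, and none 4-fold or more lower (background 7.90%), with a median log2 ratio of 5.16. The exception was Col14a1, a fibril-associated collagen (chromosome 15, 55307750 to 55520803, plus strand), with 19.3 CPM in fibroblast-like (18.7 to 19.97) and 21.7 CPM in macrophage-like cells (20.1 to 23.5). The folding machinery was less one-sided. Of 16 folding and modification genes compared against mast cell-like cells, 9 were 4-fold or more higher and none lower, led by Serpinh1, the collagen chaperone (78.1-fold), Fkbp10, a prolyl isomerase (54.4-fold), and P3h4 (51.5-fold). Of 9 maturation and crosslinking genes all 9 were higher, led by Pcolce2, Adamts2, which removes the amino propeptide, and Tll1 (75.5-, 67.4- and 55.9-fold). Collagen receptors were higher for 4 of 5, basement membrane partners for 8 of 8 and fibril-associated proteins for 7 of 7. Against macrophage-like cells P3h2, a prolyl 3-hydroxylase, stood at 83.8 CPM in the macrophage-like and 1.91 CPM in the fibroblast-like cells. Lair1, an inhibitory collagen receptor of immune cells, stood at 62.8 and 0.795 CPM.

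Collagen UMIs in the other 2 classes were set against RNA of fibroblasts present in their droplets. For the 10 fibroblast markers, the level relative to fibroblast-like cells was 0.0131 to 0.0274 in mast cell-like cells (median 0.0176) and 0.0177 to 0.0705 in macrophage-like cells (median 0.0286). The upper end was set by Lum in mast cell-like and by Serpinf1 in macrophage-like cells. With only that 1 marker left out of each class, the upper ends were 0.0224 and 0.0397. A level within this range cannot be told apart from fibroblast RNA in these droplets, free or in remaining doublets, and its source was not tested. A gene was counted as within the range where its 95% interval reached it, and as above where its lower bound exceeded it. Of the genes with at least 30 UMIs on both sides, 22 counted as within in mast cell-like cells and 17 in macrophage-like cells. These included Col1a1, Col1a2, Col3a1, Col4a1, Col4a2 and the 3 main type VI chains in both classes. The place of Col16a1 in macrophage-like cells, at 0.0503 (0.0398 to 0.0628), rested on Serpinf1. Without that marker Col16a1 would count as above. At 5500 UMIs per cell Col1a2 was found in 36.7% of the macrophage-like class and 32.5% of the mast class (57.2% and 57.5% before thinning).

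In mast cell-like cells 9 genes lay above the marker range. The most abundant was Col15a1, at 0.0676 of its fibroblast-like level (0.0660 to 0.0693). It was found in 12.4% of thinned mast cell-like cells, 7.42% of macrophage-like and 66.7% of fibroblast-like cells (26.1%, 13.3% and 89.0% before thinning). It was spread over all 5 mast cell-like clusters, at 19.8 to 26.5 CPM. Col18a1 stood at 0.0531 of its fibroblast-like level and Col23a1, a transmembrane collagen, at 0.0673. Both were uneven over the mast cell-like clusters. Col18a1 ran from 1.96 CPM (1.59 to 2.40) in a cluster of 3767 cells to 5.39 CPM (4.68 to 6.17), beside 2.48 CPM in macrophage-like cells. Col23a1 ran from 0.327 to 1.32 CPM. Place against the marker range was not computed by cluster. The other 6 were low in mast cell-like cells, at 0.154 to 2.37 CPM, but their ratios ran from 0.142 for Col20a1 through 0.239 for Col9a3, 0.289 for Col7a1, 0.510 for Col11a2 and 0.694 for Col10a1 to 0.747 for Col4a4. Col15a1, Col18a1, Col9a3 and Col10a1 overlap a gene of the other strand (Gm12426, Slc19a1, Tcfl5 and Nt5dc1) and Col20a1 one of its own strand. Whether counting used strand was not given in the sources used here, so the assignment of these UMIs is uncertain.

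In macrophage-like cells 5 genes lay above the marker range: Col14a1 at 1.13 of its fibroblast-like level, Col4a4 at 0.453, Col20a1 at 0.186, Col23a1 at 0.140 and Col27a1 at 0.0925. Col14a1 was found in 8.33% of thinned macrophage-like, 7.84% of fibroblast-like and 0.274% of mast cell-like cells (12.7%, 22.3% and 0.565% before thinning). It came from a minority of the class, with UMIs in 349 of 2757 macrophage-like cells before thinning. The 10% of macrophage-like cells with most of it held 88.6% of its UMIs, and the 10 cells with most held 10.9%. The macrophage-like class was mixed, with neutrophil markers at 340 CPM and erythroid markers at 1446 CPM in sum. A finer clustering named 1673 cells macrophage and left unnamed a cluster of 1084 cells led by S100a8, S100a9 and Lyz1. That cluster passed 7 of 8 macrophage markers, and its part in the Col14a1 level was not tested. A split of the thinned macrophage-like cells by Lyve1, a receptor of tissue-resident macrophages, was chosen after the values were seen. The 1312 cells with a Lyve1 UMI had 6.93 CPM of Col14a1 (5.14 to 9.14) and the 884 cells without had 47.9 CPM (42.0 to 54.5). P3h2 in the same cells stood at 90.6 CPM (83.8 to 97.9) and 99.5 CPM (90.9 to 109). These intervals cover counting error only, and the share of all genes that differed between these sets was not computed. Col14a1 overlaps 2 transcripts of the other strand.

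**Figure D2:**
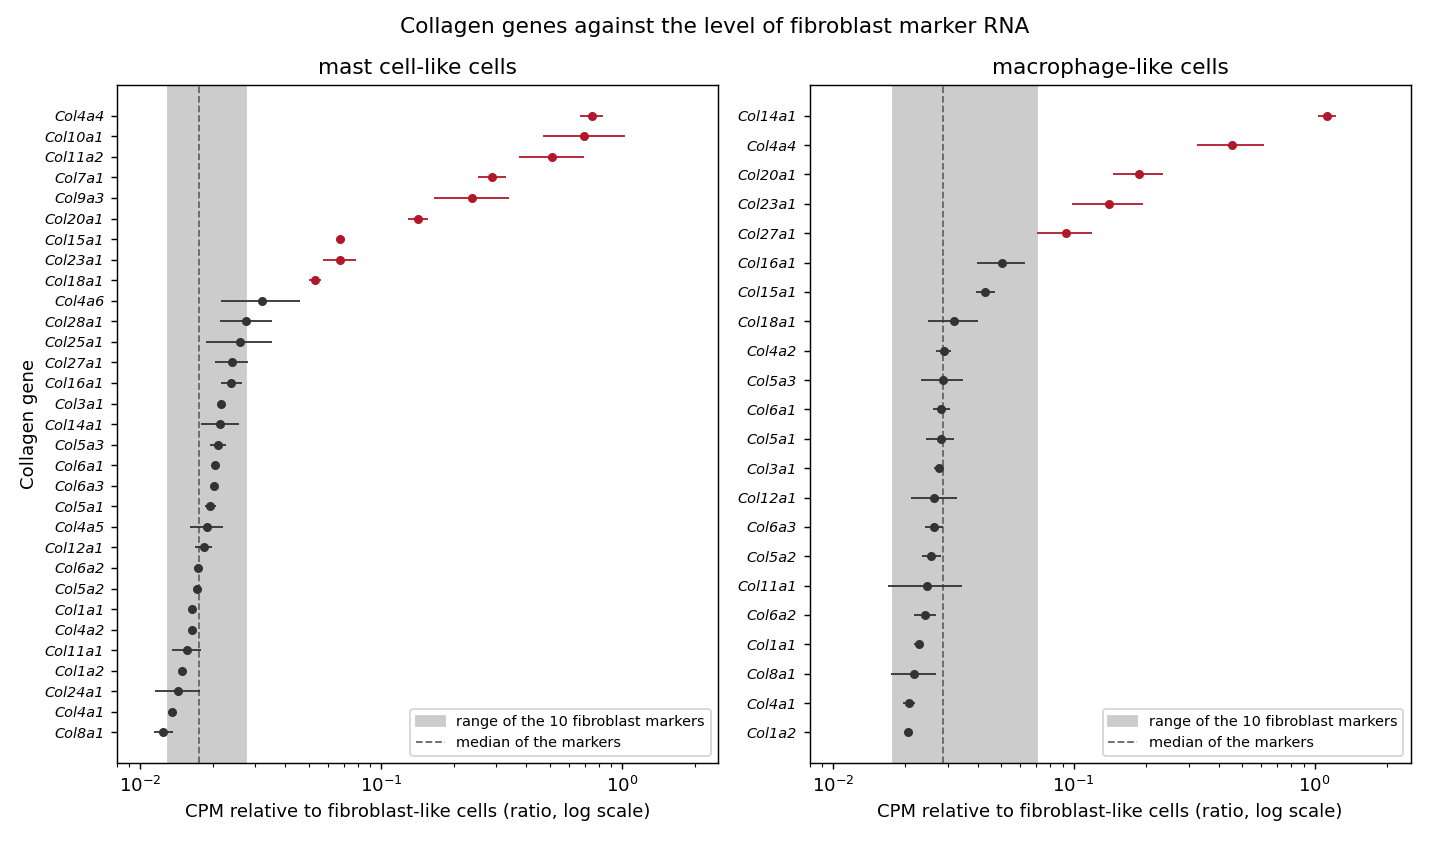
Level of each collagen gene in mast cell-like (left) and macrophage-like cells (right) relative to fibroblast-like cells (log axis, bars are 95% intervals for counting error), for genes with at least 30 UMIs on both sides. The grey band is the range of the 10 fibroblast markers, and red points lie above it: 9 genes in mast cell-like and 5 in macrophage-like cells, with Col14a1 at 1.13 in the latter.

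Within the fibroblast-like cells, sets were taken by at least 3 UMIs of C7 (a complement component), Crabp1 (a retinoic acid binding protein) or Adipoq (the adipokine adiponectin) and under 3 of the other 2. This gave 318 C7, 159 Crabp1 and 49 Adipoq fibroblasts, with 4926 cells of none and 5 of more than 1. Median depth was 30648, 45017 and 27871 UMIs in the 3 named sets. Collagen took 1.66% of gene UMIs in C7 fibroblasts (1.65 to 1.67), 0.455% in Crabp1 fibroblasts (0.451 to 0.460), 1.00% in Adipoq fibroblasts (0.984 to 1.02) and 1.775% in fibroblasts of none (1.773 to 1.777). Per cell the medians were 1.53%, 0.321%, 0.680% and 1.67%. A share of 1% or more was reached by 70.8% of C7, 7.55% of Crabp1 and 38.8% of Adipoq fibroblasts, so the cells of the sets overlap.

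**Figure D3:**
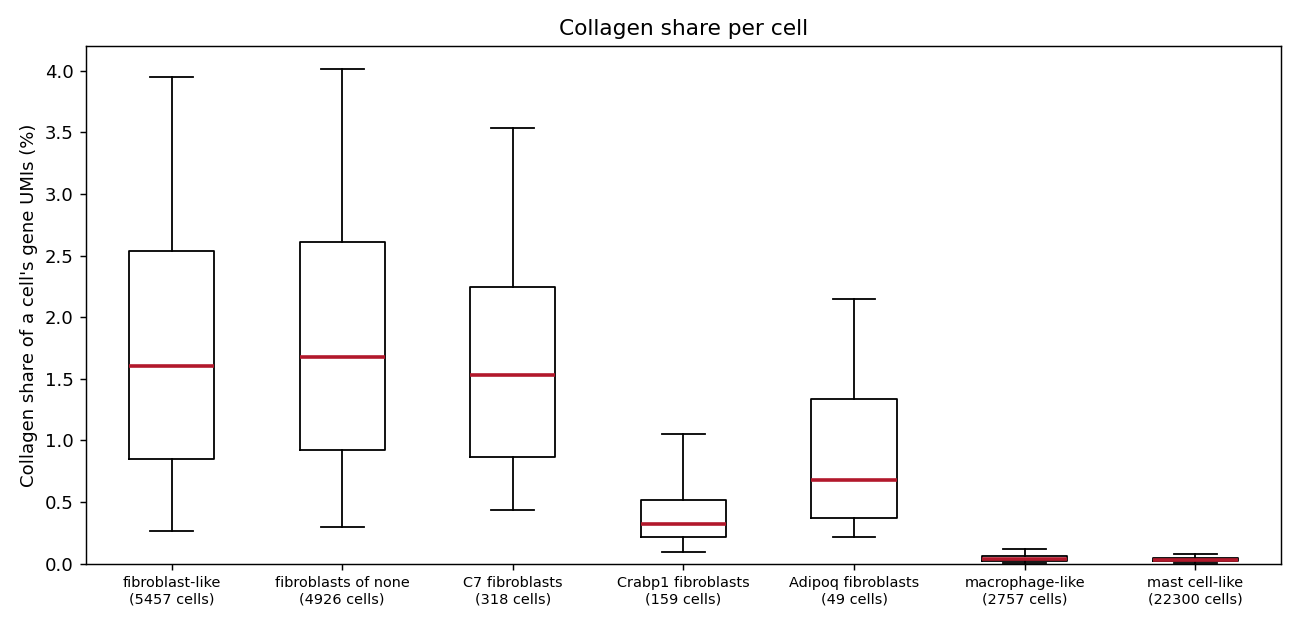
Collagen share of each cell's gene UMIs by class and fibroblast set (vertical axis in percent, red line the median, box the quartiles, whiskers the 5th and 95th percentiles over cells). Crabp1 fibroblasts have a median of 0.321% against 1.53% in C7 fibroblasts, and the upper quartile of macrophage-like and mast cell-like cells stays under 0.1%.

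The sets differed in make-up as well as amount. Fibrillar genes supplied 69.5% of collagen UMIs in C7, 62.2% in Crabp1 and 46.8% in Adipoq fibroblasts. Type IV supplied 16.01%, 11.6% and 31.1%, and type VI 11.02%, 16.5% and 16.3%. Multiplexins supplied 1.82%, 4.26% and 3.20%, and the short-chain genes 0.398%, 2.81% and 0.0141%.

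**Figure D4:**
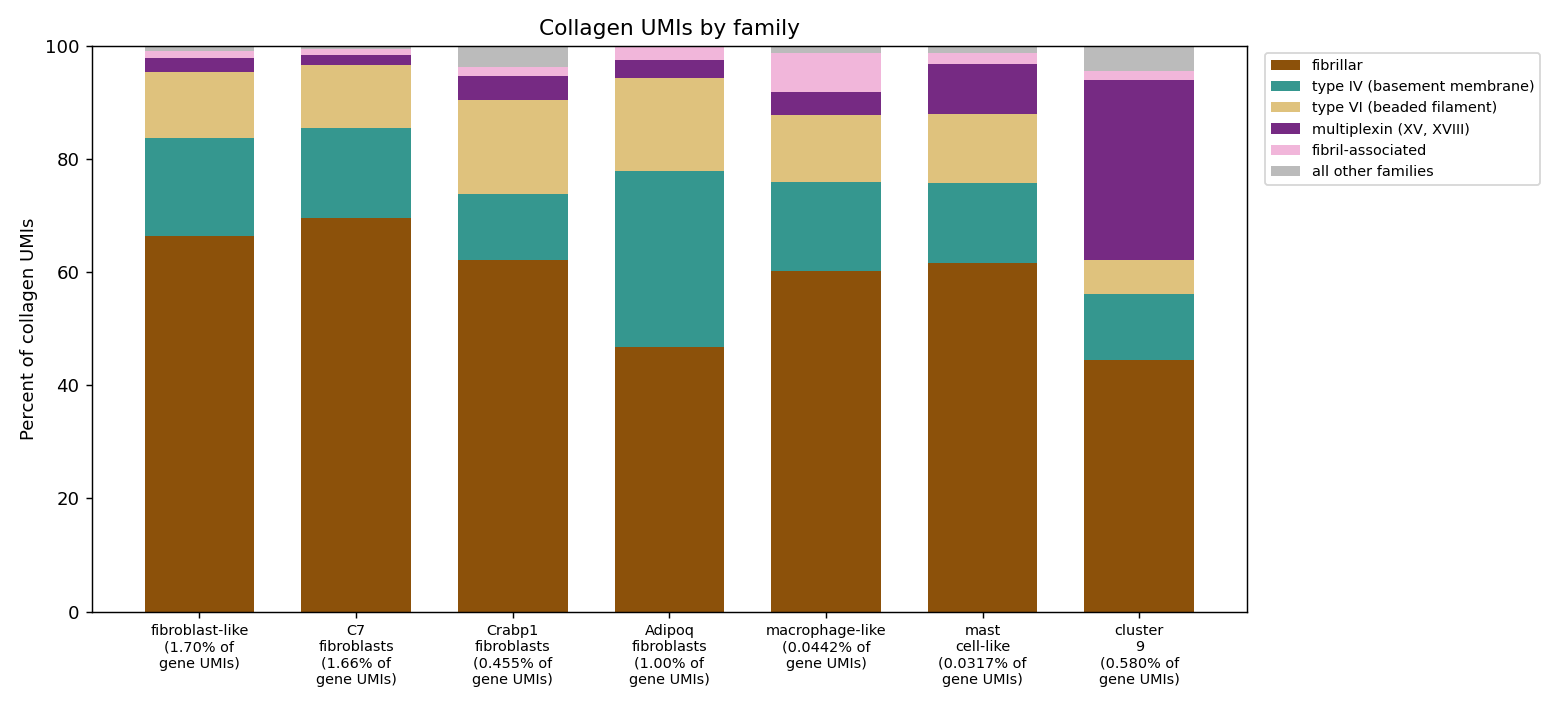
Percent of collagen UMIs by family in the fibroblast-like, macrophage-like and mast classes, 3 fibroblast sets and the unnamed cluster 9 (vertical axis in percent, total collagen share of gene UMIs under each bar). Type IV reaches 31.1% in Adipoq fibroblasts against 16.01% in C7 fibroblasts, and multiplexins reach 31.9% in cluster 9.

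Crabp1 fibroblasts had less of most collagen genes than C7 fibroblasts. Of 24 collagen genes compared, 15 were 2-fold or more lower, against 8.74% of all 9311 genes, and 4 were 2-fold or more higher, against 7.63%. The median log2 ratio was -1.30, against 0.02 over all genes compared. Col14a1, Col20a1 and Col27a1 reached 10 CPM in C7 fibroblasts alone, and Col25a1 in Crabp1 fibroblasts alone. The counts were thus partly set by that filter. Col3a1 had 3670.2 CPM in C7 (3633 to 3707) and 593 CPM in Crabp1 fibroblasts (576 to 610.4), 6.19-fold lower (6.00 to 6.38). Col1a1 was 5.06-fold lower (2557 against 505 CPM) and Col1a2 3.31-fold lower (4258 against 1285 CPM). The 2 chains of type I collagen thus differed by unequal amounts, and the ratio of Col1a1 to Col1a2 UMIs was 0.600 in C7 and 0.393 in Crabp1 fibroblasts. Col4a1 was 5.41-fold lower (1796 against 332 CPM) and Col4a2 4.96-fold lower (821 against 166 CPM), with a ratio of Col4a1 to Col4a2 of 2.19 and 2.01. Type VI genes differed less than these: Col6a3 was 2.59-fold, Col6a1 2.502-fold and Col6a2 2.11-fold lower. The largest ratios were those of Col14a1 (13.6-fold lower, 32.6 against 2.40 CPM) and Col27a1 (7.05-fold lower), both compared only through the set where they were high.

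Against that direction, Col11a1 had 26.97 CPM in C7 (23.9 to 30.3) and 68.0 CPM in Crabp1 fibroblasts (62.4 to 74.0), 2.52-fold higher (2.18 to 2.92). It was found in 9.18% of thinned C7 and 16.5% of thinned Crabp1 fibroblasts (22.3% and 55.3% before thinning). Col18a1 was 2.23-fold higher (49.8 against 111 CPM) and Col24a1, a minor fibrillar chain, 2.19-fold higher (14.2 against 31.1 CPM). Leaving out the 1 cell of either set with most UMIs of a gene was an alternative chosen after seeing the data. For Col24a1, 1 Crabp1 cell gave 20.7% of its UMIs, and without it the gene stood at 1.79-fold (1.44 to 2.24), under the 2-fold mark. Without their top Crabp1 cell Col11a1 and Col18a1 were 2.38- and 2.09-fold higher. Col25a1, a transmembrane collagen of nerve and muscle, was 3.75-fold higher (4.89 against 18.3 CPM). It entered the comparison only through Crabp1 fibroblasts, where it was high. It rested on few cells, with UMIs in 22 of 159 Crabp1 and 13 of 318 C7 fibroblasts, and 1 cell gave 52.0% of its UMIs in the latter. It stood at 7.77-fold without that cell and at 2.98-fold without its top Crabp1 cell. Col8a1 had 65.9 CPM in C7 and 127 CPM in Crabp1 fibroblasts, 1.93-fold higher and under the 2-fold mark, and 1 cell gave 25.2% of the Crabp1 UMIs. It stood at 1.49-fold without that cell and at 2.11-fold without the top C7 cell. Against the 4926 fibroblasts of none, 15 of 24 genes were again 2-fold or more lower (background 5.67%) and 1, Col25a1, 2-fold or more higher (background 4.28%). There too Col25a1 entered through Crabp1 fibroblasts alone, and Col14a1 and Col27a1 through the fibroblasts of none alone. Col11a1, Col18a1 and Col24a1 then stood at 1.495-, 1.43- and 1.497-fold and Col8a1 at 0.886-fold, so their excess depended on the set compared with.

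The genes that process collagen were mixed in Crabp1 fibroblasts. Of 11 maturation and crosslinking genes compared against C7 fibroblasts, 3 were 2-fold or more higher and 5 lower, against 7.63% and 8.74% of all genes compared. The higher ones were Adamts14, a propeptidase (6.29-fold), Tll1, a proteinase of the carboxyl propeptide (5.80-fold), and Loxl3, a lysyl oxidase relative (4.803-fold). The lower ones included Lox, the main lysyl oxidase (6.997-fold), Loxl2 (5.85-fold) and Pcolce, an enhancer of propeptide removal (3.93-fold). Of 16 folding genes, 4 were lower, with Plod1, a lysyl hydroxylase, 4.62-fold lower. Of 6 receptors, Itga2 was 11.9-fold higher (4.79 against 57.0 CPM), and Itga11 and Itga1 were 5.06- and 3.13-fold lower. Adamts14 and Itga2 reached 10 CPM in Crabp1 fibroblasts alone, and Itga11 and Itga1 in C7 fibroblasts alone. Basement membrane partners were lower for 5 of 8 and fibril-associated proteins for 6 of 8, none being higher in either list.

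Several measures moved with the low collagen of Crabp1 fibroblasts. The summed fibroblast markers stood at 1334 CPM against 4402 CPM in C7 fibroblasts, and 6 of the 10 were 2-fold or more lower, Dcn by 6.02-fold. The 6 smooth muscle markers summed to 92.3 against 11.3 CPM, with Acta2 at 39.1 against 4.50 CPM and the defining Myh11 at 1.26 against 0.586 CPM. In the fibroblasts of none, whose collagen share was 1.77%, the smooth muscle markers summed to 84.1 CPM, with Acta2 at 32.5 CPM. The 6 chondrocyte and bone markers summed to 131 against 60.9 CPM. Cells with UMIs of 3 or more of 6 proliferation genes at 5500 UMIs were 19.6% of Crabp1 and 1.58% of C7 fibroblasts. Among cells with none of these genes the collagen share was 0.532% in 76 Crabp1 and 1.72% in 241 C7 fibroblasts. Lack of their UMIs at this depth does not show that a cell was not cycling. None of these measures was tested as a cause. By tag, 92 Crabp1 fibroblasts carried the Matrigel tag alone and 67 more than 1 tag, with none untagged. Among cells with the Matrigel tag alone the share was 0.498% in Crabp1 and 1.92% in 131 C7 fibroblasts. Whether tags mark culture, day or source was not tested. In a finer clustering 142 cells with 3 or more Crabp1 UMIs fell in 1 cluster of 1094 cells led by Crabp1, Dlk1, Ltbp1, Chrm3 and Tll1. That cluster stayed unnamed because Acta2, a smooth muscle marker at 81.8 CPM, was among its leading genes, and its collagen share was 0.741%. With it left out, 7 Crabp1 fibroblasts were left, at 1.61%. An alternative chosen after seeing the data, with clusters named by fibroblast markers alone, gave 0.453% in 160 Crabp1 fibroblasts.

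Against C7 fibroblasts, 4 genes parted ways between the sets. Col3a1 was lower in both Crabp1 and Adipoq fibroblasts, and Col6a3 lower in Crabp1 but 1.71-fold higher in Adipoq. Col8a1 and Col11a1 were higher in Crabp1, Col8a1 by less than 2-fold, and near 0 in Adipoq fibroblasts. Beside the fibroblasts of none, Col8a1 was not higher in Crabp1 fibroblasts (127 against 143 CPM). The upstream sequence of these 4 genes is printed. Each is the 250 bases before the start in RefSeq (GRCm38.p6), 5′ to 3′ on the gene's strand: Col3a1 chr1:45311288-45311537 plus, Col6a3 chr1:90843972-90844221 minus, Col8a1 chr16:57754738-57754987 minus and Col11a1 chr3:114030290-114030539 plus. Capitals mark 3 motifs wherever they occur on either strand. The TATA box was searched as TATAAA, which reads as TTTATA when it lies on the opposite strand of the window. The CCAAT box was searched by its name letters, which read as ATTGG on that opposite strand. The GC box was searched as GGGCGG, which likewise reads as CCGCCC on the opposite strand. No motif overlaps another by its letters in these 4 windows.
Col3a1: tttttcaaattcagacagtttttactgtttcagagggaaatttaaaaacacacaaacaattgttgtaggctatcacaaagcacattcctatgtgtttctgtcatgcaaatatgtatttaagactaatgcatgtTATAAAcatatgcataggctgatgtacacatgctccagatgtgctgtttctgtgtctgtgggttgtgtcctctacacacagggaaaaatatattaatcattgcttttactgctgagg
Col6a3: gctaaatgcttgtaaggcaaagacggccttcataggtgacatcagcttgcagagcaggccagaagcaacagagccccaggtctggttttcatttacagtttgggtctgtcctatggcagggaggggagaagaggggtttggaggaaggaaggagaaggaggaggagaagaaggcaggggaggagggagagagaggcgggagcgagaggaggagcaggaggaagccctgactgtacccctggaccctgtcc
Col8a1: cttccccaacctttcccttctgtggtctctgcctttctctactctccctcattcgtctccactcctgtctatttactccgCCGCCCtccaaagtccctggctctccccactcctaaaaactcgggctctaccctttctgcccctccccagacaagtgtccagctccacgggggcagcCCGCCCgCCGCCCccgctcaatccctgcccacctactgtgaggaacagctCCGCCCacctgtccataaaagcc
Col11a1: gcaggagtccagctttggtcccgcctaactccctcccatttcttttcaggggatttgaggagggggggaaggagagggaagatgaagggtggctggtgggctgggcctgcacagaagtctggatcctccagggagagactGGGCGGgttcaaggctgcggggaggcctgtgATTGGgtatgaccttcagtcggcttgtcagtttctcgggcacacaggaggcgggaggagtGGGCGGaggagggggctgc
Col3a1 held a TATAAA and neither other motif, Col6a3 held none, Col8a1 held GGGCGG on the reverse strand 4 times and Col11a1 held GGGCGG 2 times and CCAAT on the reverse strand. RefSeq windows were matched for 35 of the 44 genes. TATAAA was found in 14.3% of these and 12.4% of all 32851 windows, CCAAT in 37.1% and 33.8%, and GGGCGG in 60.0% and 32.7%. These are letter matches and no sign of a bound factor.

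Adipoq fibroblasts, 49 cells, had a different pattern. Of 23 genes compared against C7 fibroblasts, 13 were 2-fold or more lower (background 8.40%) and 1 higher (background 4.17%). The median log2 ratio was -1.11, against -0.08 over all genes compared. All 23 reached 10 CPM in C7 but only 17 in Adipoq fibroblasts. Col8a1, Col11a1, Col14a1, Col23a1, Col24a1 and Col27a1 entered through C7 fibroblasts alone, and all of them counted as lower. The lower count was thus partly set by that filter. This comparison shares the C7 fibroblasts with the one above. The fibrillar Col3a1, Col1a2 and Col1a1 were 2.73-, 2.67- and 2.57-fold lower, with 1344, 1592 and 994 CPM in Adipoq fibroblasts. The main type IV chains were not lower, unlike Col4a5 (3.27-fold lower). Col4a1 had 2176 CPM in Adipoq (2100.2 to 2254) and 1796 CPM in C7 fibroblasts, a ratio of 1.21 (1.17 to 1.26), and Col4a2 a ratio of 1.12 (1.05 to 1.18). Col4a1 thus exceeded Col1a2 in UMIs, at a ratio of 1.37 against 0.422 in C7 fibroblasts. Col4a1 was found in 100% of thinned Adipoq fibroblasts, while Col1a2 was found in 36 of 48 of them and in 98.7% of C7 fibroblasts (91.8% and 100% before thinning).

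Col6a3 parted from its type VI partners in Adipoq fibroblasts. It had 1093 CPM (1039.7 to 1149) against 639 CPM in C7 fibroblasts, 1.71-fold higher (1.62 to 1.81), while Col6a1 and Col6a2 were 2.13- and 2.28-fold lower. The ratio of Col6a3 to Col6a1 UMIs was 3.21 in Adipoq, 0.880 in C7 and 0.850 in Crabp1 fibroblasts. Per cell Col1a2 had a median of 563 CPM in Adipoq and 3829 CPM in C7 fibroblasts, and 10 of the 49 Adipoq fibroblasts held 76.0% of the set's Col1a2 UMIs. Per cell Col6a3 had a median of 1018 CPM in Adipoq and 575 CPM in C7 fibroblasts, and 90% of Adipoq fibroblasts were above 467 CPM. Col12a1 was the single gene past 2-fold higher, with 193 CPM (171 to 218) against 65.2 CPM, 2.97-fold (2.57 to 3.42). The Adipoq fibroblast with most Col12a1 gave 13.8% of its UMIs. Col5a3 was 1.82-fold and Col18a1 1.57-fold higher, and Col15a1 stood at 0.957-fold (0.853 to 1.07).

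Col8a1, Col11a1, Col24a1 and Col23a1 had 2, 3, 3 and 1 UMIs in all Adipoq fibroblasts. Their ratios to C7 fibroblasts were 0.0213 (0.00258 to 0.0774), 0.0782 (0.0160 to 0.231), 0.149 (0.0303 to 0.444) and 0.0402 (0.00101 to 0.227). Of the pathway lists, Loxl3 (2.16-fold) and Comp, a cartilage matrix protein (3.69-fold), were higher. Lama2, the main muscle laminin chain (3.004-fold), Ogn (7.80-fold) and Aspn (8.92-fold), both small leucine-rich proteins, were lower, as were 2 of 16 folding genes (8.40% of all genes compared were lower). Ogn and Aspn reached 10 CPM in C7 fibroblasts alone. The macrophage markers summed to 207 CPM in Adipoq and 84.6 CPM in C7 fibroblasts, and the fibroblast markers to 3673 and 4402 CPM. In cells with the Matrigel tag alone (28 Adipoq, 131 C7), Col4a1 stood at 2170 and 1912 CPM, Col6a3 at 1261 and 708 CPM and Col1a2 at 1283 and 4772 CPM. Against the fibroblasts of none, 11 of 22 genes were 2-fold or more lower in Adipoq fibroblasts (background 6.39%) and none higher (background 4.64%), with Col12a1 at 1.69-fold, Col6a3 at 1.49-fold and Col4a1 at 1.03-fold. All 22 reached 10 CPM in the fibroblasts of none but only 17 in Adipoq fibroblasts, so the filter acted alike there. C7 fibroblasts themselves stood close to the fibroblasts of none: of 23 genes, Col23a1 was 2.12-fold higher (background 1.44%) and Col8a1 2.17-fold lower (background 1.09%). Col23a1 entered that comparison through C7 fibroblasts alone (17.5 against 8.24 CPM). For this gene 1 C7 cell gave 35.8% of its UMIs, and without that cell the gene stood at 1.38-fold (1.13 to 1.67).

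**Figure D5:**
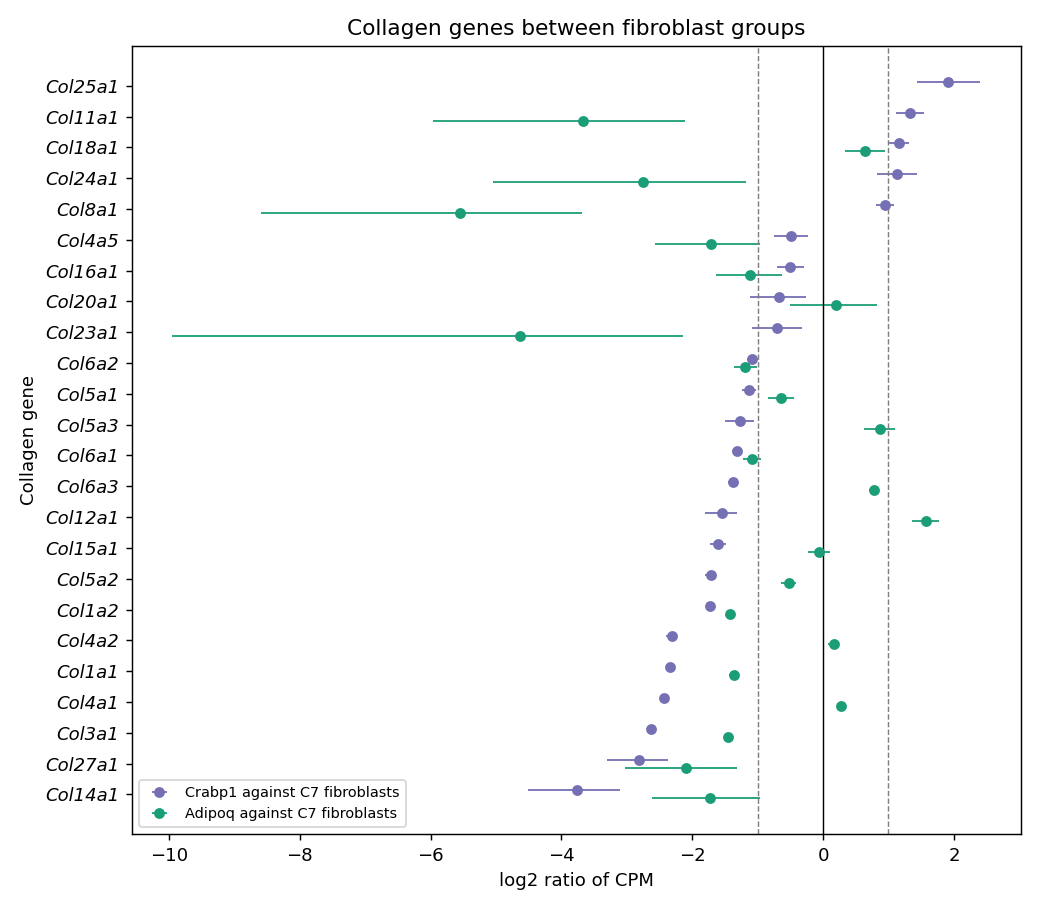
Log2 ratio of CPM to C7 fibroblasts for each collagen gene compared, in Crabp1 (purple) and Adipoq fibroblasts (green), with 95% intervals for counting error and dashed lines at 2-fold. Col4a1, Col4a2 and Col6a3 lie left of 0 in Crabp1 and right of 0 in Adipoq fibroblasts, while Col8a1 and Col11a1 lie right of 0 in Crabp1 and left of it in Adipoq fibroblasts.

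Across single fibroblast-like cells, some chains of 1 trimer varied together closely and others less so. Over 4765 cells thinned to 15000 UMIs, Spearman's rho was 0.92 for Col1a1 and Col1a2, 0.88 for Col4a1 and Col4a2 and 0.78 for Col6a1 and Col6a2. It was lower for Col6a3 with Col6a1 and Col6a2 (0.58 and 0.53) and for Col5a1 with Col5a2 and Col5a3 (0.57 and 0.39). Between collagen types it was 0.83 for Col3a1 and Col1a1, 0.76 for Col1a1 and Col5a2 and 0.68 for Col4a1 and Col6a3. The lowest of the 136 pairs was Col4a1 with Col11a1, at -0.15. The cells share 1 library and the fibroblast sets above, and these values are a description.

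Cells with proliferation genes had less collagen. The share was 1.07% in the 333 thinned fibroblast-like cells with 3 or more of the 6 genes and 1.90% in the 3654 with none. Of the 17 genes named, 15 had a ratio under 1, from 0.381 for Col3a1 to 0.866 for Col18a1. Col11a1 had 65.0 CPM with and 32.5 CPM without proliferation genes, a ratio of 2.00, and Col8a1 a ratio of 1.22.

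Cluster 9, 37 cells left unnamed, had its own collagen profile. Sox10, a Schwann cell marker, stood at 196 CPM, Cdh5, an endothelial junction gene, at 97.4 CPM, and the fibroblast markers summed to 75.1 CPM. Collagen took 0.580% of its gene UMIs. Col5a2 had 1796 CPM (1711 to 1883), Col18a1 1733 CPM (1650.4 to 1819), Col4a1 415 CPM (375 to 458) and Col28a1, a collagen known from peripheral nerve, 217 CPM (188 to 248.8). Col1a2 had 241 CPM and Col3a1 107 CPM, against 4606 and 2825 CPM in fibroblast-like cells. Col18a1 was found in 36 of the 37 cells, and the cell with most of it gave 6.59% of its UMIs. Col27a1 had 101 CPM (81.3 to 123) and P3h2 204 CPM. Cluster 9 and its genes were chosen after their values were seen.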

How the data were processed

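The authors deposited raw UMI counts per gene and barcode, made with Cell Ranger 7.0.0 and mm10 per the submitters' processing notes, which also name STAR, R 4.1.3 and Seurat 4.1.1. The annotation, intronic reads and use of strand are not given in the sources used here. The tag library itself was not used here, and 3 tag features in the matrix (21.9% of UMIs) were kept out of gene totals.

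Barcodes with at least 500 genes, 1000 UMIs and at most 10% mitochondrial UMIs were kept, less 3209 called by Scrublet (scanpy 1.11.5, threshold 0.564), which left 30755 cells. Leiden clustering (leidenalg 0.10.2, resolution 0.5, 2000 variable genes, 30 components, 15 neighbours) left out collagen, listed, mitochondrial and ribosomal protein genes. Doublets under the threshold remain. No annotation by the authors was used, so names were rebuilt and may differ from the study's. A marker passed at 50 CPM and 4 times its lowest cluster, and a class needed 3 markers and more than 50% of its list. It stayed unnamed where another list led its 10 leading genes, or where it was shallow. No test was made. CPM carry exact Poisson, shares Clopper-Pearson and ratios exact conditional 95% intervals, checked on simulated data. Genes at 10 CPM or more in either group entered ratios, at 4-fold between classes and 2-fold between fibroblast sets. A cell carried a tag at 2 times its background, or 1.4 times for Cafum. Genes named individually are those at 50 CPM or more in a class or fibroblast set, and pathway genes those with the largest ratios. Other genes named were chosen after their values were seen. Members and lists were chosen with earlier results of these data known. Coordinates are from GENCODE M21 (GRCm38), and 35 of 38 RefSeq windows matched its transcripts on the same strand. Some items of the gene lists are not reported here.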

Additional observations from a re-analysis of the deposited data

How the results depend on the processing

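No paired analysis was possible because there is 1 library. Collagen shares of gene UMIs are given in percent for fibroblast-like, macrophage-like, mast cell-like, C7, Crabp1 and Adipoq cells, each where it moved beyond its counting interval. With at most 5% mitochondrial UMIs they were 1.708 (fibroblast-like) and 0.0428 (macrophage-like). With called doublets kept they were 1.608, 0.0391, 0.0313 and 1.612 (C7), and fibrillar genes gave 66.53% of collagen UMIs. At resolution 1 they were 2.103, 0.05396, 0.0314, 1.715, 1.608 (7 cells) and 1.017. Cells within cuts of the marker lists gave 2.265, 0.0433, 0.0306, 1.951, 1.436 (11 cells) and 1.455, with fibrillar genes at 66.93%. Without the small fibroblast-like cluster they were 1.707 (fibroblast-like) and 1.677 (C7). With the Matrigel tag alone they were 1.711, 0.0316 (2 cells), 0.0767, 1.916, 0.498 and 0.935. With clusters named by markers alone, chosen after seeing the data, the fibroblast-like share was 1.689. Sets at 1 UMI gave 1.861 (C7), 0.603 (Crabp1) and 1.332 (Adipoq), and at 5 UMIs 1.5795, 0.486 and 0.885. Means over cells were 1.786, 0.0536, 0.0354, 1.677, 0.435 and 0.925, with fibrillar genes at 63.52%. The log2 ratio of Crabp1 to C7 fibroblasts changed sign at resolution 1 for Col3a1 (0.046), Col6a1 (0.13), Col6a2 (0.072), Col5a3 (0.17) and Col11a1 (-2.38), with 7 Crabp1 cells, and within cuts of the marker lists for Col5a3 (0.088), with 11. Of 68 log2 ratios, 66 moved by less than counting error under the mitochondrial limit, 44 with doublets kept, 30 at resolution 1 and 9 within the marker cuts. Beyond counting error, 39 of 56 moved with the Matrigel tag alone, 27 of 34 at 1 UMI and 20 of 34 at 5 UMIs. Without the cell with most UMIs of the gene, chosen after seeing the data, 10 of 34 moved when it came from the first set and 0 when it came from the second, and over all collagen genes compared the 2-fold calls of Col24a1 (Crabp1 against C7) and Col23a1 (C7 against none) were lost. Calls were gained there for Col23a1 (2.05-fold lower) and Col8a1 in Crabp1 against C7, and for Col14a1 in Adipoq fibroblasts against none (2.26-fold lower).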
